A study of Homo sapiens with 8 samples.

Results

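FGFBP1 and JPH3 are 2 genes whose promoters held an ATAC-seq peak in both EZH2 WT libraries and in no EZH2 Y641F library. They come from the study's list of targets common to its gain-of-function (GOF) mutants, and the WT and Y641F values given here are what selected them, so they carry no test. The study drew that list in part from lower accessibility in Y641F and A677G in these same libraries, so the A677G values are not independent of the choice either. Every listed gene held a promoter peak in both WT libraries, 97 held one in all 8 libraries, and FGFBP1 and JPH3 were among the 3 without one in either Y641F library. Of all protein-coding promoters open in both WT libraries, 6.71% were closed in both Y641F libraries. ATAC-seq cuts accessible DNA with the Tn5 transposase, so that a called peak marks open chromatin. A promoter was called open when a peak overlapped the 1 kb on either side of a transcription start site (TSS), and closed when no peak was called there, which does not mean that no reads were present.

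The libraries came from HEK293T, a human embryonic kidney cell line, in 4 stable versions that carried a wild-type EZH2 (WT), the single mutants Y641F or A677G, or the double mutant H689A/F667I. Each version was represented by 2 libraries. EZH2 is the catalytic subunit of Polycomb repressive complex 2 (PRC2), the enzyme that places the repressive H3K27me3 mark. The study classes Y641F and A677G as GOF and H689A/F667I as loss of function (LOF). According to its methods each EZH2 form was delivered by lentivirus and infected cells were selected with blasticidin, so every line, WT included, also kept the EZH2 genes of HEK293T itself. The methods describe the selected populations as monoclonal and the libraries as independent biological replicates.

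FGFBP1 encodes a secreted carrier protein that binds fibroblast growth factors (FGFs) and releases them from the heparan sulfate of the extracellular matrix. JPH3 encodes junctophilin 3, a brain-enriched protein that holds the endoplasmic reticulum close to the plasma membrane and so brings calcium channels of both membranes together. PRC2 keeps many developmental and tissue-restricted genes silent, and its typical targets have promoters rich in CpG dinucleotides.

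The WT lists held 64923 and 62514 peaks, the Y641F lists 26350 and 36598, the A677G lists 38016 and 46358, and the H689A/F667I lists 47840 and 48755. Read depth is unknown. The lowest −log10 p of any listed peak ranged from 2.92 in WT replicate 1 to 3.31 in Y641F replicate 1, so a weak peak had to clear a slightly higher bar in the Y641F lists. The part of these differences in peak number in the results that follow was not tested, beyond lists cut to the same size. Promoters of NEFL, NEFM, VIM, PAX2 and LIN28B, taken as markers of HEK293T, were open in all 8 libraries, and those of PTPRC, CD3E, ALB and INS, which mark blood, liver and islet cells, were open in none.

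The promoters of the 2 genes differ in sequence. In the 1 kb on either side of the TSS, FGFBP1 had a GC content of 43.98% and 15 CpG dinucleotides, a ratio of observed to expected CpG of 0.155. JPH3 had a GC content of 72.8% and 233 CpG dinucleotides, a ratio of 0.880. Of 19965 protein-coding genes, 4.96% had a lower CpG ratio than FGFBP1 and 94.9% a lower one than JPH3, so the promoters sit near opposite ends of the range. Over the 964 promoters open in both WT and closed in both Y641F libraries the median ratio was 0.611, with quartiles of 0.339 and 0.743. Over the 13392 others with a peak in a Y641F library and a complete reference sequence it was 0.699, with quartiles of 0.597 and 0.786.

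The FGFBP1 stretch shown first is the intronic part of the peak of WT replicate 1 (hg38, chr4:15938472-15938623, minus strand, 152 bases, intron 1), and is shown because every FGFBP1 promoter peak reached into it. Capitals mark the 47 intronic bases covered in all 5 libraries with a peak. The second is the 250 bases before the FGFBP1 TSS from RefSeq (GRCh38.p14, chr4:15938741-15938990, minus strand), shown because the peaks largely lay downstream of them. The third is the stretch common to the 3 peaks upstream of FGFBP1 (hg38, chr4:15956297-15956588, minus strand, intergenic). The last sequences are the stretches common to 6 libraries at JPH3, upstream of the gene (hg38, chr16:87588872-87589082, plus strand, intergenic) and in intron 1 (hg38, chr16:87636365-87636620, plus strand), where every line but Y641F held peaks. In the second sequence capitals mark a motif match, and in those after it they mark CpG dinucleotides.
FGFBP1 intron 1: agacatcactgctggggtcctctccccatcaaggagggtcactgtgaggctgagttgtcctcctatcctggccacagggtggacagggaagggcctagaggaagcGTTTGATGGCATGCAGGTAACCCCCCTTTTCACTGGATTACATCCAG
FGFBP1 before the TSS: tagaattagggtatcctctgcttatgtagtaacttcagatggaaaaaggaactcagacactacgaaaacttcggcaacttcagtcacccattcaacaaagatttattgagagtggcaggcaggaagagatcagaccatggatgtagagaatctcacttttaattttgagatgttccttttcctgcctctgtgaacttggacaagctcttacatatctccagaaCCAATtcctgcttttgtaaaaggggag
FGFBP1 upstream region: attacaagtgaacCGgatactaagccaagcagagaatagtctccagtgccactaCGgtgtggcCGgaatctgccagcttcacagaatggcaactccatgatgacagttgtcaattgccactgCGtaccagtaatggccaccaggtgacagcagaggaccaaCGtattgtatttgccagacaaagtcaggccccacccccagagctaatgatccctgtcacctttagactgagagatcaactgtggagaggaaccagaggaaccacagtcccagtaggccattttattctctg
JPH3 upstream region: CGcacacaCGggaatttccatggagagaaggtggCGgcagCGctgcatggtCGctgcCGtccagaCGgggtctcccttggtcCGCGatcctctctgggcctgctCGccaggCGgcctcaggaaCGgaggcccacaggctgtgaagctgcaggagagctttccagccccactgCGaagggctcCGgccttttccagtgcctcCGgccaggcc
JPH3 intron 1 region: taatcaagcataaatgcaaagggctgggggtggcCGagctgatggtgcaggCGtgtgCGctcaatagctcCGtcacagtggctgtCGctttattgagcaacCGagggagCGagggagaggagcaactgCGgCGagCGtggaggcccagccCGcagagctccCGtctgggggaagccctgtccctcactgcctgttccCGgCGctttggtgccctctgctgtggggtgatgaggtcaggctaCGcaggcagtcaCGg

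CpG content again set the loci apart, with 1 CpG in the FGFBP1 intron stretch and 5 in the FGFBP1 upstream region against 15 and 16 in the JPH3 regions. A total of 6 motifs were searched on both strands, namely the TATA box (TATAAA), the CCAAT box, the GC box (GGGCGG), the AP-1 site (TGANTCA), the E-box (CACGTG) and the GATA site (AGATAA). The only match in these 5 sequences was a CCAAT before the FGFBP1 TSS. This motif was present in 32.0% of 35116 RefSeq promoters over the same 250 bases. JPH3 had no entry in the RefSeq promoter table.

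FGFBP1 (ENSG00000137440.5) lies at chr4:15935577-15938740 on the minus strand and has 1 annotated TSS. Its promoter peak was called in 5 of 8 libraries and lay mostly downstream of the TSS, over intron 1 and the untranslated exon 2. In WT replicate 1 the peak covered 465 bp, from 117 to 581 bp downstream of the TSS, with a fold enrichment of 5.19 and a −log10 p of 8.84. In WT replicate 2 it covered 314 bp with a fold of 5.27 and a −log10 p of 8.74. Neither Y641F library held a peak. The WT replicates thus differed little, with a mean fold of 5.23 ± 0.0544 (SD, n = 2).

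In A677G and H689A/F667I the FGFBP1 peak had a lower fold than in WT where it was called, and for A677G the study's target list had favoured lower accessibility. H689A/F667I replicate 1 had a peak of 503 bp with a fold of 3.77 and a −log10 p of 4.94, the only one to reach across the TSS. H689A/F667I replicate 2 had a peak of 342 bp with a fold of 3.90 and a −log10 p of 5.22. The mean fold in this line was 3.83 ± 0.0929 (SD, n = 2), below both WT values. A677G replicate 1 had a 200 bp peak with a fold of 3.45 and a −log10 p of 4.17, and A677G replicate 2 had none. The order of the values was therefore WT, H689A/F667I, A677G and Y641F, without overlap between WT and any mutant library. The peak in WT and its absence in Y641F were fixed by the choice of the gene. How many of all promoters show this order was not counted. A677G and Y641F were not separated, since A677G replicate 2 also lacked the peak. With 2 libraries against 2 an exact permutation test cannot give a p below 0.333, so the order of single lines cannot pass a test.

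The same order held for the rank of the FGFBP1 peak within its own library. By −log10 p it exceeded 30.7% and 31.3% of open promoters in the WT libraries, 9.80% and 10.99% in the H689A/F667I libraries and 4.34% in A677G replicate 1. By fold it exceeded 81.6% and 82.0% of open promoters in WT, 34.7% and 38.8% in H689A/F667I and 20.8% in A677G replicate 1. In WT the peak thus ranked far higher by fold than by −log10 p, which also grows with the number of reads. The libraries had between 12117 and 14753 open promoters. In a bulk assay, fewer cells with an open promoter and a less open promoter in each cell cannot be told apart.

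JPH3 (ENSG00000154118.13) lies at chr16:87601835-87698156 on the plus strand and has 4 annotated TSSs, with the canonical one at position 87602508. Its promoter peak was called in 4 of 8 libraries and lay over the coding part of exon 1 and the untranslated stretch before it. WT replicate 1 had a peak of 501 bp, from 466 to 966 bp downstream of the TSS, with a fold of 3.45 and a −log10 p of 5.36. WT replicate 2 had a peak of 351 bp with a fold of 3.39 and a −log10 p of 5.04. Neither Y641F library held a peak. The mean fold in WT was 3.42 ± 0.0385 (SD, n = 2), well under the FGFBP1 value.

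In the other mutant lines the JPH3 peak was at the edge of detection. A677G replicate 2 had a peak of 473 bp with a fold of 2.62, a −log10 p of 3.16 and a −log10 q of 1.07, and A677G replicate 1 had none. H689A/F667I replicate 1 had a peak of 405 bp with a fold of 2.82, a −log10 p of 3.39 and a −log10 q of 1.26, and H689A/F667I replicate 2 had none. Both lists started at a −log10 p of 3.06 and a −log10 q of 1.00, so these peaks only just entered them. H689A/F667I replicate 1 also had a 201 bp peak at a downstream TSS of JPH3 at position 87653562, with a fold of 3.61 and a −log10 p of 5.67, which no other library had. By −log10 p the main JPH3 peak exceeded 8.32% and 6.88% of open promoters in WT, 0.0494% in A677G replicate 2 and 0.478% in H689A/F667I replicate 1. The JPH3 peak was thus called in 1 replicate and missed in the other in both of these lines.

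**Figure D1:**
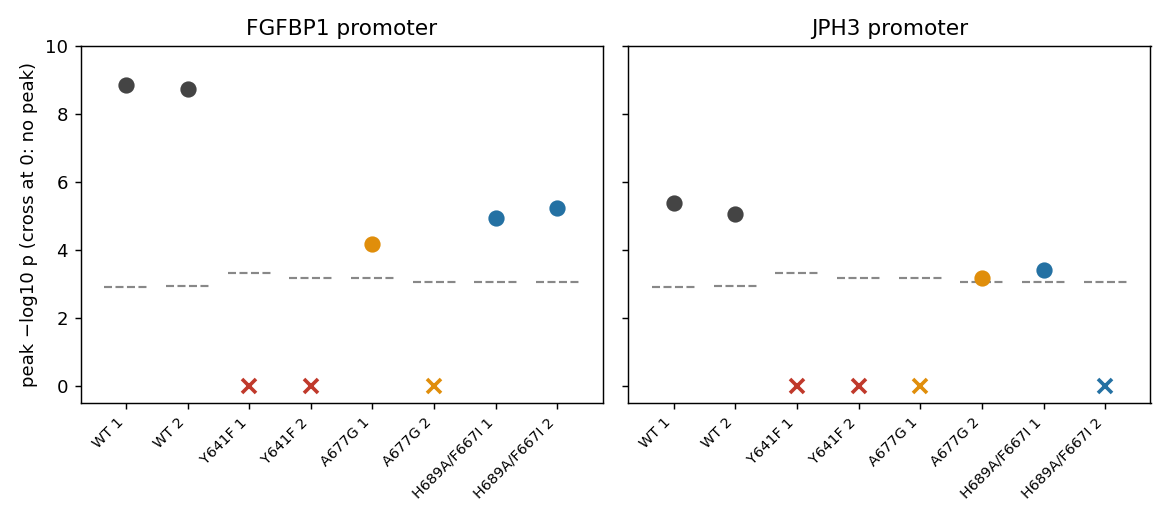
Promoter peak −log10 p (y axis) in each of the 8 libraries (x axis) for FGFBP1 and JPH3, at the canonical TSS. Circles are called peaks, crosses at 0 are libraries without a peak, and dashed lines give the lowest −log10 p in that library's list. FGFBP1 lies at 8.84 and 8.74 in WT and between 4.17 and 5.22 in the mutant libraries with a peak, while the JPH3 mutant peaks at 3.16 and 3.39 lie next to the dashed lines.

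These calls were set against all protein-coding promoters. Of 14357 promoters open in both WT libraries, 964 (6.71%) were closed in both Y641F libraries, 321 (2.24%) in both A677G libraries and 219 (1.53%) in both H689A/F667I libraries. Both genes are among the 964 by choice, and neither is among the 321 or the 219. Of the 964, 24.5% had a peak in 0 A677G libraries, 34.2% in 1, as at FGFBP1 and JPH3, and 41.3% in both. Likewise 17.6% had a peak in 0 H689A/F667I libraries, 27.9% in 1, as at JPH3, and 54.5% in both, as at FGFBP1. The numbers of peaks seen at the 2 genes in these lines were thus each shared by 27.9% to 54.5% of the 964.

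The 2 genes differed in the strength of their WT promoters. Strength was taken as the lower −log10 p of both WT libraries, and the 14357 promoters were divided into deciles by it. JPH3, at 5.04, fell in decile 1, the weakest, where 665 of 1436 promoters (46.3%) were closed in both Y641F libraries. FGFBP1, at 8.74, fell in decile 4, where 24 of 1435 promoters (1.67%) were closed in both, the H689A/F667I count was 0 and the A677G count was 3. The median strength was 10.7 over all these promoters and 4.84 over the 964. JPH3 exceeded 56.3% of the 964 and thus lay near their middle, and FGFBP1 exceeded 97.3% of them. FGFBP1 was chosen from these values, so its place is a description. Among all WT-open regions rather than promoters, FGFBP1 fell in decile 8, where 8.08% of 4862 were closed in both Y641F libraries. JPH3 fell in decile 4 of the regions, where 50.1% of 4861 were.

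**Figure D2:**
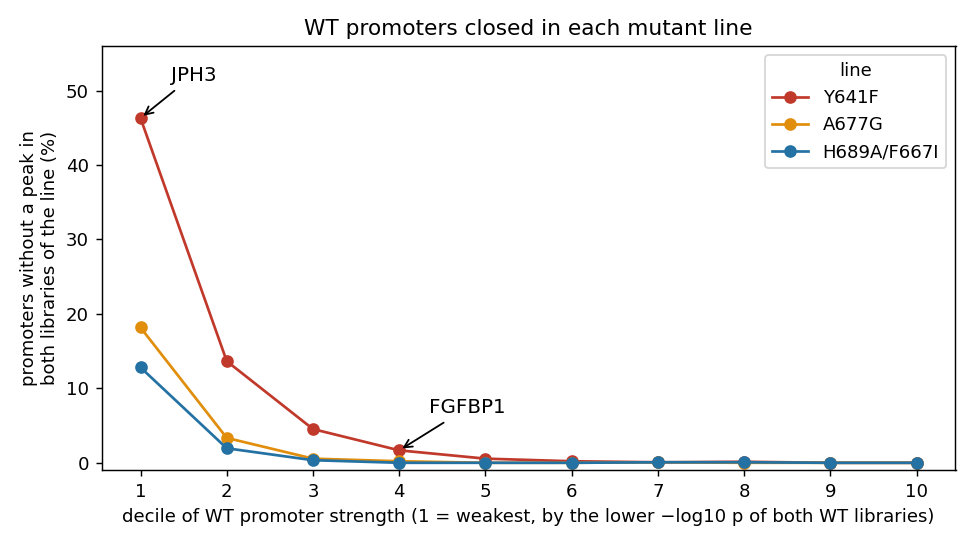
Share of WT-open promoters (y axis, percent) without a peak in both libraries of Y641F, A677G or H689A/F667I, by decile of WT promoter strength (x axis, decile 1 weakest, 1435 to 1437 promoters each). The Y641F share runs from 46.3% in the decile that holds JPH3 to 1.67% in the decile that holds FGFBP1, and the other lines lie lower in these deciles.

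Among the listed targets, 43 had a weaker WT promoter than FGFBP1, and 1 had a weaker one than JPH3. The median strength of the list was 9.61. Just outside the choice were 8 targets closed in 1 Y641F library, ANKRD33B, EGFLAM, EGFR, GNG2, HLF, SPOCK1, SPON1 and TSPAN11. All 8 lacked the peak in Y641F replicate 1, the list with the fewest peaks, and held it in Y641F replicate 2 and in every A677G and H689A/F667I library. Their peaks in Y641F replicate 2 had a −log10 p from 3.73 at TSPAN11 to 11.04 at GNG2, which encodes a G protein subunit. At EGFR, the epidermal growth factor receptor, WT strength was 8.21, close to that of FGFBP1, and the Y641F replicate 2 peak had a fold of 5.16 and a −log10 p of 8.72. That FGFBP1 and JPH3 lacked a peak in the longer Y641F list, and these 8 did not, was fixed by how the genes were chosen.

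Another listed gene, named after its values were seen, also met the rule when only direct overlap with the promoter window was counted. WNT16, a secreted WNT ligand, had Y641F peaks that began 1111 and 1318 bp from its TSS, with a −log10 p of 3.75 and 3.89, so the same open region was present but ended outside the 1 kb window. With windows of 500 bp or 2 kb, or with peaks merged across libraries, FGFBP1 and JPH3 were the only listed genes that met it. With a window of 5 kb FGFBP1 alone met it, since at JPH3 a Y641F peak near the downstream TSS was then counted. With canonical TSSs FGFBP1, JPH3, WNT16 and RFTN1 met it. With a −log10 q of at least 5, 35 listed genes met it, among them FGFBP1 but not JPH3, which then had no WT promoter peak. At that cut 3254 of all 11041 protein-coding promoters open in both WT libraries (29.5%) were closed in both Y641F libraries. Whether the listed genes differed from this share was not tested.

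When each list was reduced to its 26350 strongest peaks, FGFBP1 kept its peak in both WT libraries and had none in the 6 mutant libraries. JPH3 then had no promoter peak in WT and 1 in the mutants, the peak at the downstream TSS in H689A/F667I replicate 1. At JPH3 a less open Y641F promoter and the shorter Y641F lists cannot be told apart. At FGFBP1 the absence in Y641F was fixed by the choice of the gene, at this length as at any other. At this length 253 of 11682 promoters open in both WT libraries (2.17%) were closed in both Y641F libraries. The shares were 1.10% for A677G and 1.27% for H689A/F667I. TSPAN11 was the only other listed target among the 253.

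The gene body and the 20 kb on either side were then examined. The FGFBP1 window held 3 regions with a peak in any library. The promoter was the one seen in most libraries, with 5. A region 17.4 kb upstream was open in WT replicate 1 (864 bp, −log10 p of 4.88), WT replicate 2 (827 bp, 7.57) and H689A/F667I replicate 2 (347 bp, 5.36). A region 17.2 kb downstream was open in WT replicate 1 alone, with a −log10 p of 4.25. No peak lay anywhere in the window in either Y641F library or in A677G replicate 2.

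The JPH3 window, which is longer because the gene is, held 12 regions. Of the 5 that were open in both WT libraries, 3 were closed in both Y641F libraries, namely the promoter, a region 13.6 kb upstream and a region 33.7 kb into the gene within intron 1. The upstream region was open in the 6 other libraries, with a −log10 p of 6.82 and 8.60 in WT, 8.33 and 8.79 with A677G, and 7.44 and 8.57 with H689A/F667I. These values overlapped between the 3 lines. Of WT-open regions in the same decile of strength, 30.6% were closed in both Y641F libraries and 7.61% were open in all libraries but those of Y641F.

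The intron 1 region was the widest at JPH3 and spanned 1384 bp across libraries. It was covered by a single peak of 1326 and 1369 bp in WT, with a −log10 p of 9.23 and 8.58, and of 1117 and 1134 bp in H689A/F667I, with 5.50 and 6.96. In each A677G library it was split into a weaker peak and a stronger peak. The stronger ones were 256 and 318 bp wide with a −log10 p of 8.17 and 9.65. The weaker ones were 210 and 260 bp wide with 4.15 and 3.90. Neither Y641F library held any of it. WT-open regions of this strength were closed in both Y641F libraries in 8.08% of 4862 cases, and in 3.41% they were open in all libraries but those of Y641F, as here.

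Peaks were not absent from the whole JPH3 locus in Y641F. Y641F replicate 2 held the region 20.1 kb upstream, at a −log10 p of 3.76, which was also open in WT (4.64 and 6.02), A677G replicate 2 (4.16) and H689A/F667I (6.64 and 4.12). Y641F replicate 1 held a peak with a −log10 p of 3.45 at the region 55.2 kb into the gene. That region carried the strongest JPH3 peaks in WT, at 10.5 and 10.1, and values of 7.17 and 6.81 in H689A/F667I, and was closed in both A677G libraries. The Y641F peak there lay at the edge of the region and shared 36 and 79 bp with the WT peaks. Y641F replicate 2 had 1 further peak, 25.6 kb into the gene, that no other library had.

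**Figure D3:**
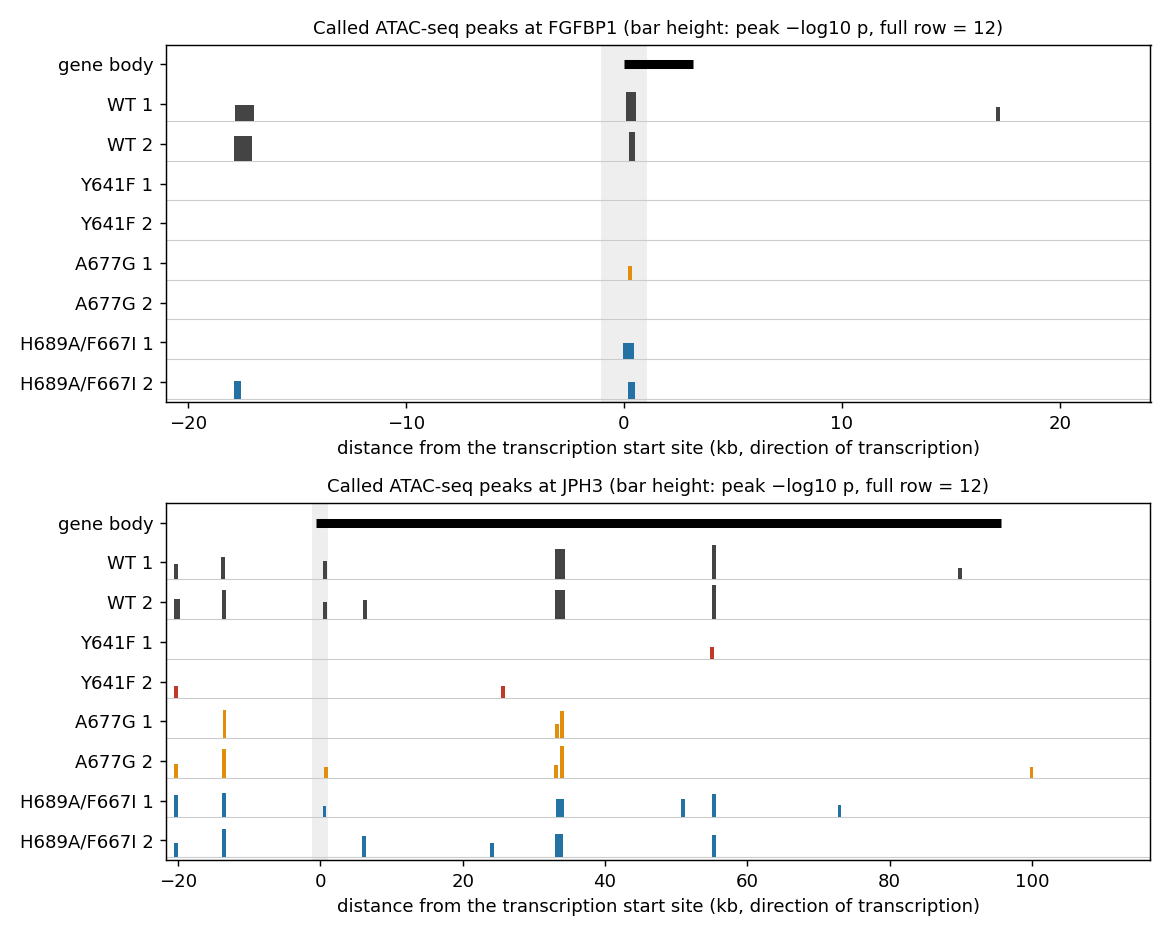
Called peaks of the 8 libraries (rows) along FGFBP1 and JPH3, by distance from the canonical TSS in kb (x axis), with bar height giving −log10 p, the gene body as a black bar and the 1 kb around the TSS shaded. Very narrow peaks are drawn slightly wider than they are. FGFBP1 has no bar in either Y641F row, and JPH3 has 1 and 2 there against 6 in each WT row.

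In all, the FGFBP1 window held 3 and 2 peaks in the WT libraries and 0 in each Y641F library. A677G had 1 and 0 there, and H689A/F667I had 1 and 2. The JPH3 window held 6 in each WT library, 1 and 2 in the Y641F libraries, 3 and 6 with A677G and 7 and 6 with H689A/F667I. Among regions called in both WT libraries, both Y641F libraries lacked 2 of 2 at FGFBP1 and 3 of 5 at JPH3, against 35.3% of 48615 such regions genome-wide. Both A677G libraries lacked 1 at each gene (20.8% genome-wide), and both H689A/F667I libraries lacked 0 at either (14.2% genome-wide). Each Y641F count includes the promoter, which was open in WT and closed in Y641F by the choice of the gene. Counts of 2 and 5 regions are too small to be read as differing from these shares.

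Relative to the length of its own list, the JPH3 window held 0.924 and 0.960 peaks per 10000 library peaks in WT and 0.380 and 0.546 in Y641F. It held 0.789 and 1.29 with A677G and 1.46 and 1.23 with H689A/F667I. On this scale Y641F lay below WT and H689A/F667I above it, while the A677G libraries lay on either side. How many other genes show such an order was not counted. The place of H689A/F667I depended on the measure. In covered bp per Mb of the library's peaks it had 101 and 85.0 against 77.8 and 93.3 in WT, which overlap, and in covered bp it had 3009 and 2581 against 3308 and 3853, below WT. Y641F was lowest on each of these measures, with 21.5 and 36.9 bp per Mb and 326 and 827 bp. For FGFBP1 the values were 0.462 and 0.320 in WT, 0 in both Y641F libraries, 0.263 and 0 with A677G, and 0.209 and 0.410 with H689A/F667I, so that H689A/F667I and WT overlapped.

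A677G and H689A/F667I were compared by an exact two-sided permutation test. The peak rule used neither line, but lower accessibility in A677G contributed to the study's target list, so lower A677G values were favoured by the choice of genes. At FGFBP1 the mean number of peaks was 0.5 ± 0.707 (SD, n = 2) for A677G against 1.5 ± 0.707 (SD, n = 2) for H689A/F667I (exact permutation p = 0.667). The peaks covered 100 ± 141 bp for A677G against 596 ± 132 bp for H689A/F667I (SD, n = 2, exact permutation p = 0.333). At JPH3 there were 4.5 ± 2.12 peaks for A677G against 6.5 ± 0.707 for H689A/F667I (SD, n = 2, exact permutation p = 0.667). They covered 1423.5 ± 838 bp and 2795 ± 303 bp (SD, n = 2, exact permutation p = 0.333). After Benjamini-Hochberg adjustment over the 4 tests each exact p was 0.667. The covered length did not overlap between the lines at either gene, and 0.333 is the smallest p that this design can give. The whole lists did not overlap either, with 22.5 and 27.0 Mb covered in A677G and 29.7 and 30.4 Mb in H689A/F667I. Per Mb of the library's peaks, A677G had 8.91 and 0 bp at FGFBP1 against 16.9 and 22.7 bp in H689A/F667I. At JPH3 it had 37.0 and 74.7 bp against 101 and 85.0 bp. The share of other genes with such a separation was not counted. With peaks of a −log10 q of at least 5 alone, the JPH3 direction turned, to 1.5 more peaks and 485.5 bp more in A677G (exact permutation p = 0.333).

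**Figure D4:**
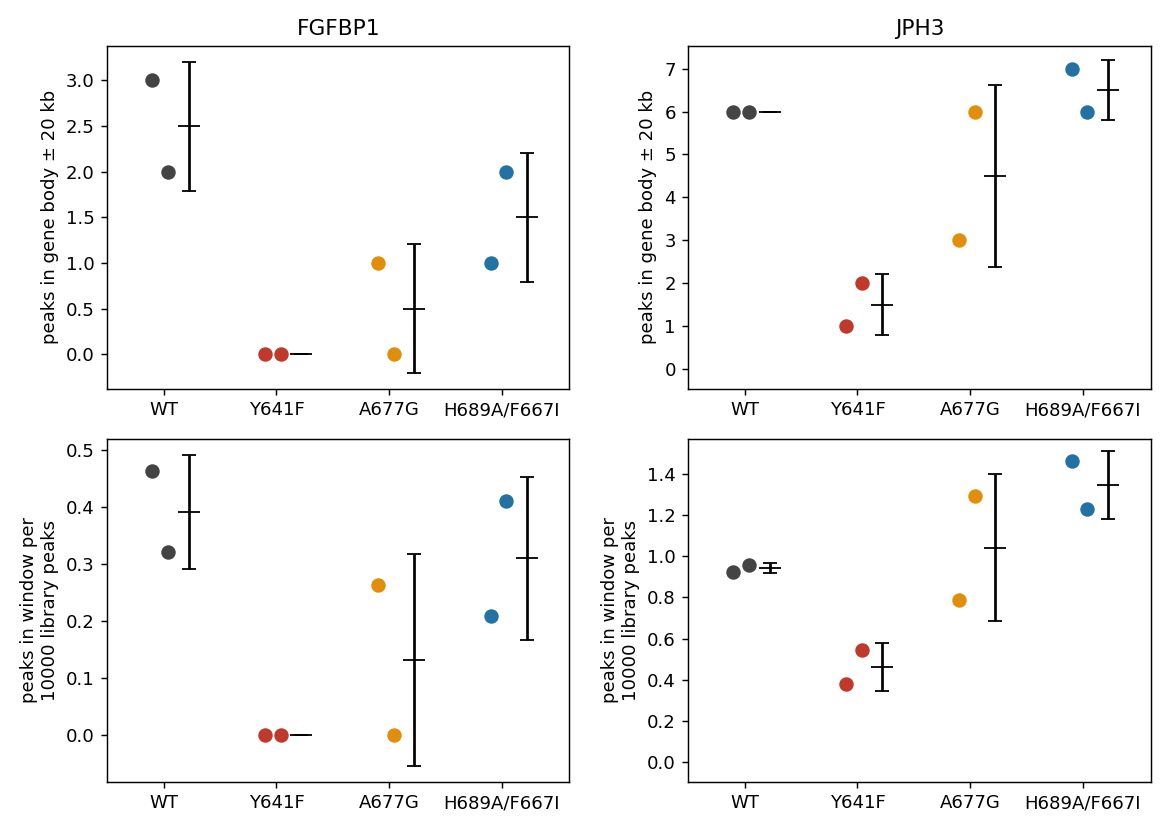
Number of peaks in the gene body and 20 kb around FGFBP1 and JPH3 (upper plots, y axis) and the same per 10000 peaks of the library (lower plots, y axis) in the 4 lines (x axis). Coloured points are libraries, and the black bars give the mean and SD of 2 libraries. The Y641F points are the lowest at JPH3 in both rows and lie at 0 at FGFBP1, where A677G replicate 2 also lies at 0.

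The promoters of neighbouring genes were not uniformly closed in Y641F. Around FGFBP1, BST1 and CD38, which encode ectoenzymes of NAD metabolism, held no promoter peak in any library. FAM200B was open in all 8, with a −log10 p of 15.8 to 26.8. FGFBP2, the paralog whose TSS lies 24.4 kb from that of FGFBP1, was open in 6 libraries, with a −log10 p of 8.66 and 4.47 in WT, 3.59 in Y641F replicate 2, 3.94 in A677G replicate 2, and 5.38 and 5.33 in H689A/F667I. Its values thus overlapped between WT and H689A/F667I. TAPT1 was closed in Y641F replicate 1 and open in the other 7.

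PROM1, 145 kb from FGFBP1, encodes the membrane glycoprotein prominin 1 and was the neighbour closed in both Y641F libraries. Its promoter peak had a −log10 p of 7.06 and 8.23 in WT, 5.35 and 5.65 with A677G, and 6.06 and 5.67 with H689A/F667I. All 4 of these mutant values lay below the WT ones, as at FGFBP1, the neighbour FAM200B and the paralogs FGFBP3 and JPH1. At FGFBP2 and TAPT1 the H689A/F667I and WT values overlapped. How many of all promoters have every mutant value below WT was not counted. Of the 4 neighbours of FGFBP1 open in both WT libraries, 1 was closed in both Y641F libraries.

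Around JPH3, none of the 5 neighbours open in both WT libraries was closed in both Y641F libraries. FBXO31, a ubiquitin ligase subunit, and MAP1LC3B, a component of autophagosome membranes, shared 1 promoter peak in all 8 libraries, with a −log10 p of 4.78 to 8.93. SLC7A5, which encodes a transporter of large neutral amino acids, was open in all 8, with values of 4.37 to 8.52. ZCCHC14 and KLHDC4 lacked a peak in Y641F replicate 1 alone. CA5A, a mitochondrial carbonic anhydrase, was closed throughout. The nearest of these TSSs lay 109 kb from that of JPH3, so no neighbour shared its promoter.

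**Figure D5:**
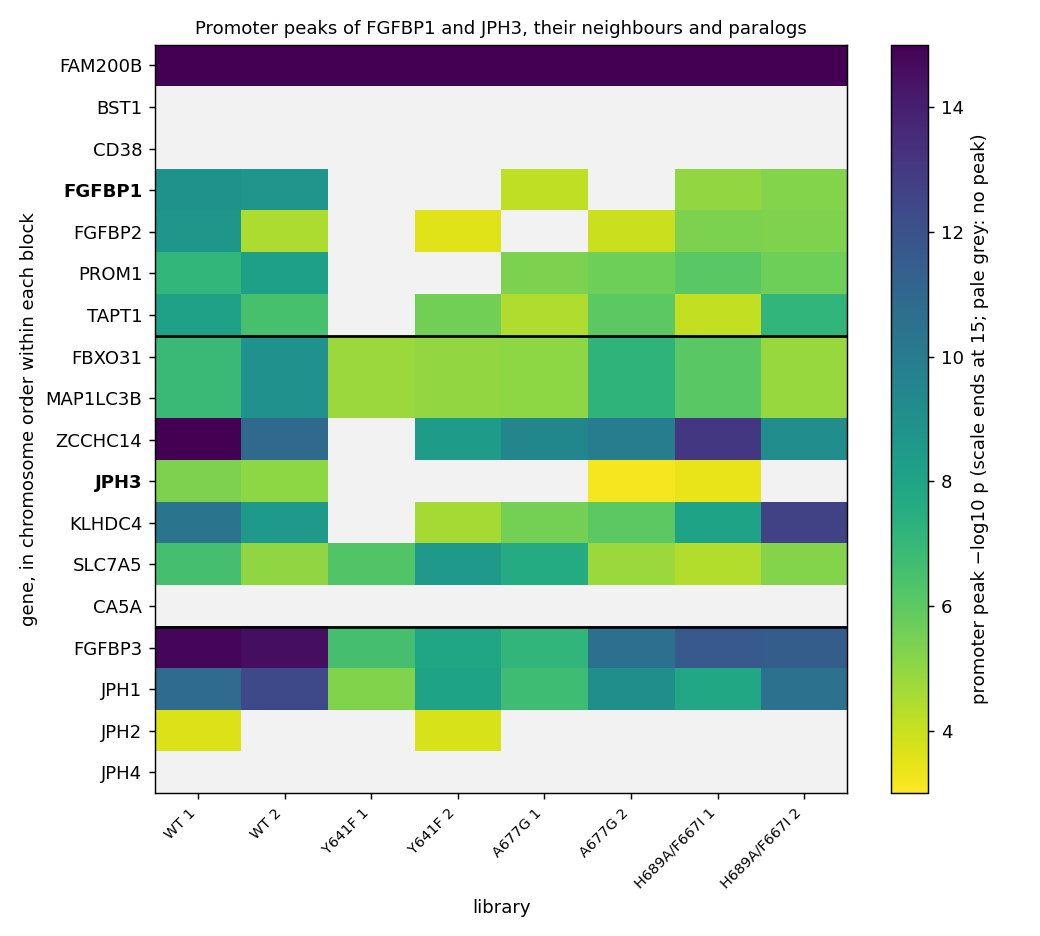
Promoter peak −log10 p (colour, scale ending at 15) in the 8 libraries (columns) for FGFBP1 and JPH3 with the 3 nearest protein-coding genes on each side, in chromosome order, and for the paralogs on other chromosomes (bottom block). Pale grey cells have no peak, and FBXO31 and MAP1LC3B show the same peak. The FGFBP1 and PROM1 rows are empty in both Y641F columns, as is the JPH3 row, and every gene around JPH3 that is open in WT has a colour in Y641F replicate 2.

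The paralogs on other chromosomes behaved differently from one another. FGFBP3, on chromosome 10, was open in all 8 libraries, with a −log10 p of 14.8 and 14.6 in WT, 6.52 and 7.88 with Y641F, 7.103 and 10.6 with A677G, and 11.7 and 11.4 with H689A/F667I. Every mutant value lay below both WT values. JPH1, the junctophilin of skeletal muscle, was open in all 8, at 10.8 and 12.3 in WT, 5.28 and 8.03 with Y641F, 6.72 and 9.01 with A677G, and 7.86 and 10.5 with H689A/F667I. JPH2, the cardiac form, had peaks of 3.65 in WT replicate 1 and 3.72 in Y641F replicate 2 only. JPH4, the other neural form, had none.

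The wider FGF axis, made up of FGF ligands, their receptors, klotho co-receptors, heparan sulfate proteoglycans and the binding proteins, was described by counts. Without FGFBP1 it had 42 genes, with 34 open in both WT libraries and 22 in all 8. Of the 34, 6 were closed in both Y641F libraries, 2 in both A677G libraries and 3 in both H689A/F667I libraries. The 6 were the ligands FGF3, FGF8 and FGF14, the co-receptor KL and the proteoglycans HSPG2 and GPC1. Their weaker WT values ran from 3.61 at FGF14 to 5.95 at GPC1, all below that of FGFBP1. The list had a median WT strength of 7.17, against 10.7 over all WT-open promoters, so its promoters were weaker than those behind the background shares of 6.71%, 2.24% and 1.53% for the 3 lines.

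Most receptors and proteoglycans held peaks throughout. FGFR1, FGFR2, FGFR4 and FGFRL1 were open in all 8 libraries, and FGFR3 lacked a peak in Y641F replicate 1 alone. FGFR2 had a −log10 p of 10.2 and 9.24 in WT and of 14.3 and 12.04 in Y641F, so its Y641F values were above those of WT. FGF2, a ligand that FGFBP1 is known to carry, had 7.88 and 7.48 in WT, no peak in Y641F replicate 1, and 5.89 in Y641F replicate 2. FGF1, a further ligand of FGFBP1, had 3.77 and 6.51 in WT, no peak in Y641F replicate 1, and 6.79 in Y641F replicate 2. The syndecans SDC1, SDC2 and SDC4 and the glypicans GPC2 to GPC6 were open in all 8.

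The junctional membrane list holds junctophilins, calcium release channels, store-operated channel proteins, voltage-gated calcium channels and the calcium-activated potassium channels that work beside them. Without JPH3 it had 25 genes, with 20 open in both WT libraries and 10 in all 8. Of the 20, 6 were closed in both Y641F libraries, 2 in both A677G libraries and 1 in both H689A/F667I libraries. Over all WT-open promoters the shares for these lines were 6.71%, 2.24% and 1.53%. The 6 were the ryanodine receptor RYR3, the store-operated channel ORAI2, the calcium channels CACNA1B, CACNA1D and CACNA1E and the potassium channel KCNN1. RYR2, ITPR1, ITPR2, STIM1, STIM2 and ORAI3 were open in all 8. ITPR1 had a −log10 p of 20.6 and 18.1 in WT and 23.01 and 19.1 in Y641F, so the lines overlapped. The median WT strength of the list was 6.97, and no share of it was tested against the background.

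Genes with the same presence in all 8 libraries were ranked by likeness, the sum over the 8 libraries of absolute differences in log10(1 + −log10 p). A total of 40 other genes shared the pattern of FGFBP1, or 0.279% of promoters open in both WT libraries. The closest were CD34, a sialomucin of blood progenitors and endothelium, at a summed difference of 0.286, ADGRG1, an adhesion G protein-coupled receptor, at 0.318, CCDC92B at 0.318, DNAJC8 at 0.329 and ADCY9, an adenylate cyclase, at 0.340. CD34 had a −log10 p of 6.82 and 7.32 in WT, 3.62 in A677G replicate 1, and 5.24 and 4.56 in H689A/F667I, so it lay below FGFBP1 in WT. A total of 38 other genes (0.265%) shared the pattern of JPH3, for which the ranking used the downstream TSS peak of H689A/F667I replicate 1. The closest were the calcium/calmodulin-dependent kinase CAMK1G at 0.109, ELOB at 0.168, TDRP at 0.172, the retinal homeobox gene RAX at 0.193 and WDFY4 at 0.213.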

How the data were processed

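ATAC-seq was performed in 8 libraries of 4 HEK293T lines, whose titles gave the line and the replicate number. According to the methods of the study, the authors trimmed reads with Trim Galore 0.6.5, aligned them to GRCh38/hg38 with BWA 0.7.17, removed duplicates and called peaks with MACS2 2.2.7.1. The deposited lists hold broad peaks of each library, called without pooling, with the fold enrichment, −log10 p and −log10 q that the authors obtained from MACS2, and a deposited score, which was left aside. Every list began at a −log10 q of about 1. Transposase shifting, removal of mitochondrial reads and read depth were not given in the sources used here, so no counting interval could be set.

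The analysis covered chromosomes 1 to 22 and X. Promoters were 1 kb on each side of any TSS of 19970 protein-coding genes of GENCODE 44, with 1 bp of overlap, and gene windows were the gene body with 20 kb on each side. For FGFBP1 and JPH3 the peak at the canonical TSS was described. Strength was the lower WT −log10 p of the promoter's best peak. The genes and gene lists were chosen with earlier results of these data known. Named genes were the 3 nearest protein-coding genes on each side, the paralogs, the listed targets closed in 1 Y641F library and the 5 most alike genes, with exceptions said in the text. A677G and H689A/F667I were set against each other in exact two-sided permutation tests, run in Python 3.11.15 with NumPy 2.4.6, adjusted by Benjamini-Hochberg over 4 tests. Alternatives were other promoter windows and flanks, an overlap of 200 bp, canonical TSSs, a −log10 q of at least 5, equal peak numbers, leaving out libraries, a replicate block and, added after seeing the data, merged regions. Sequences were read from hg38 and, for 1 of the 2 genes, from RefSeq promoters.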

Additional observations from a re-analysis of the deposited data

Results flagged for a closer look

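Peaks in the JPH3 window per 10000 peaks of the library differed in direction between mutant lines. Both H689A/F667I libraries (1.46 and 1.23) lay above both WT libraries (0.924 and 0.960), and both Y641F libraries (0.380 and 0.546) lay below them. The mean of H689A/F667I exceeded that of Y641F by 0.884 peaks per 10000. By covered bp per Mb of the library's peaks, H689A/F667I (101 and 85.0) and WT (77.8 and 93.3) overlapped, and by covered bp H689A/F667I (3009 and 2581) lay below WT (3308 and 3853). The difference was not tested, since Y641F was used to choose the gene. Each value rests on at most 7 peaks, and the A677G libraries lay on either side of WT, at 0.789 and 1.29. In plain counts the H689A/F667I libraries held 7 and 6 peaks and each WT library 6. The H689A/F667I lists were shorter, with 47840 and 48755 peaks against 64923 and 62514 in WT. How many other genes show this separation was not counted.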

How the results depend on the processing

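Promoter peak presence, 5 libraries at FGFBP1 and 4 at JPH3, was the same with promoter windows of 500 bp and 2 kb, with 200 bp of overlap, with canonical TSSs and with merged regions. With 5 kb it was 5 and 6, and JPH3 then had a peak in 1 Y641F library. That was the peak of Y641F replicate 1 at the region 55.2 kb into the gene, near the downstream TSS at position 87653562. No Y641F peak lay within 5 kb of the canonical TSS. With a −log10 q of at least 5, FGFBP1 had peaks in 2 libraries, both WT, and JPH3 in 0. Of 11041 promoters then open in both WT libraries, 3254 (29.5%) were closed in Y641F, 1722 (15.6%) with A677G and 1175 (10.6%) with H689A/F667I. With equal peak numbers FGFBP1 had 2 and JPH3 1. Of 11682 promoters then open in both WT libraries, the counts closed were 253 (2.17%), 129 (1.10%) and 148 (1.27%), in the same order of lines. A677G thus lay below H689A/F667I here, and above it with the full lists. Leaving out 1 library gave 1089 to 2318 promoters closed in Y641F, the most without Y641F replicate 2, 473 to 763 in A677G, the most without A677G replicate 2, and 406 to 457 in H689A/F667I, since a single library then decides a call.

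For A677G minus H689A/F667I, the FGFBP1 difference was 0 peaks and 0 bp both with a −log10 q of at least 5 and with equal peak numbers, where neither line kept a peak. The JPH3 difference turned to 1.5 peaks and 485.5 bp with a −log10 q of at least 5, and the cause was not tested. Leaving out 1 library gave -1.5 to -0.5 peaks and -596 to -396 bp at FGFBP1, and -3.5 to -0.5 peaks and -1964 to -779 bp at JPH3. With a replicate block, in which libraries of the same number were paired, the differences were -1 peak and -496 bp at FGFBP1 and -2 peaks and -1371.5 bp at JPH3, with exact sign-flip p of 0.5 or above, 0.5 being the smallest possible. Differences between replicates correlated between lines by -0.0244 to 0.0540 over 11819 promoters, so no shift shared by libraries of the same number was seen. Whether libraries of the same number were processed together is not known. With 2 libraries per line and unknown depth, an absent JPH3 promoter peak and one just under the calling threshold cannot be told apart.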
